A study of Homo sapiens with 12 samples.

Results

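The comparison set TC32 cells against HCT116 cells, both under a control siRNA (siNeg), and asked which genes give each line its identity: lineage factors, adhesion, metabolism and signalling. It used 6 of the 12 arrays of the study, 3 with TC32 RNA and 3 with HCT116 RNA, chosen by their labels alone. TC32 is a cell line from an Ewing sarcoma, and HCT116 is a cell line from a colorectal carcinoma. The control siRNA was used at 20 nM for 48 h in all 6. The other 6 arrays held the same lines with an siRNA against PRKDC (siPRKDC) at the same dose and time, and were used only to repeat the line difference on separate arrays. TC32 was grown in RPMI-1640 and HCT116 in DMEM, each with 10% serum. Each tumour type was represented by 1 line, so the line, its tumour type, its tissue of origin and its medium cannot be told apart in any difference below. The labels do not say whether replicates were separate cultures, so the spread behind the p-values may be a technical one.

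Ewing sarcoma cells carry a fusion of EWSR1, a gene for an RNA-binding protein of the FET family, with an ETS transcription factor gene, usually FLI1. The fusion protein (EWS-FLI1) binds repeats of the sequence GGAA, switches many genes on and others off, and gives the cells a mixed neural and mesenchymal character. Colorectal carcinoma cells keep much of the epithelium they come from: E-cadherin junctions, desmosomes, keratin filaments and intestinal transcription factors.

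RNA was measured on Illumina HumanHT-12 v4 bead arrays, on which each probe's brightness stands for the amount of 1 transcript. Values below are log2 intensities after background correction and quantile normalization over the 6 arrays, where the detection floor, the lowest signal of any detected probe, lay between 4.36 and 4.40. A level can be compared between lines but not between genes. Of 47322 probes, 15590 were detected on all 3 arrays of at least 1 line (detection p below 0.05), and they gave 9927 genes. Each TC32 array detected 16324 to 16603 probes and each HCT116 array 17658 to 17740. Over the genes tested, 2 arrays of TC32 correlated at 0.990 to 0.992, 2 of HCT116 at 0.993 to 0.994, and arrays of different lines at 0.821 to 0.829 (Pearson's r, across genes, which are not independent).

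The lines differed at most genes. By limma's moderated test with Benjamini-Hochberg adjustment, 6808 genes passed an adjusted p of 0.05, which is 68.6% of those tested (31.1% higher in TC32, 37.5% lower). Because so many genes passed, the counts below rest on genes that passed and also differed at least 2-fold: 749 were higher in TC32 (7.55% of genes tested) and 910 were lower (9.17%), or 16.7% in all. The values of the lines did not overlap for 70.6% of genes. Among 7450 genes detected on all 6 arrays, 453 were higher (6.08%) and 511 lower (6.86%), and the median difference was -0.02 on the log2 scale. A gene detected in 1 line only had to differ to be measured, so list counts (higher, then lower) are also given for the genes detected on all 6 arrays. The background for every 2-fold list count below is 7.55% higher and 9.17% lower. For counts on all 6 arrays it is 6.08% and 6.86%. Where a probe was not detected on every array of the dimmer line, the fold is a bound with undetected values below the floor set to the floor. The 2-fold counts use the measured values, and for 30 of the higher genes and 57 of the lower ones the bound itself was under 2-fold. Quantile normalization sets the intensity distribution of all arrays equal. With median scaling of each array instead, the median difference moved to -0.23 and the calls to 2156 higher and 4860 lower, against 3090 and 3718 here. Lists are described under quantile normalization, and a gene whose direction turned under another scaling is marked.

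In the called genes named below, all 3 values of a line lay above or below all 3 of the other unless an overlap is stated, and "not called" means an adjusted p above 0.05, which does not show that the lines were equal. Some genes were detected on only some arrays of the dimmer line. One TC32 array of 3 detected ADGRG1, BDNF, CDK6, COL18A1, COL4A5, CYP26B1, PRSS8, SPRY4, VCAN and VGF, and 2 detected IGFBP3 and MT1E. One HCT116 array detected BASP1, BST2, DNER, FLI1, GALNT5, LRIG1, NCAM1, OLFML3 and RGS4, and 2 detected CEACAM1, HOXB2, IFITM1 and PPP1R1A.

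**Figure D1:**
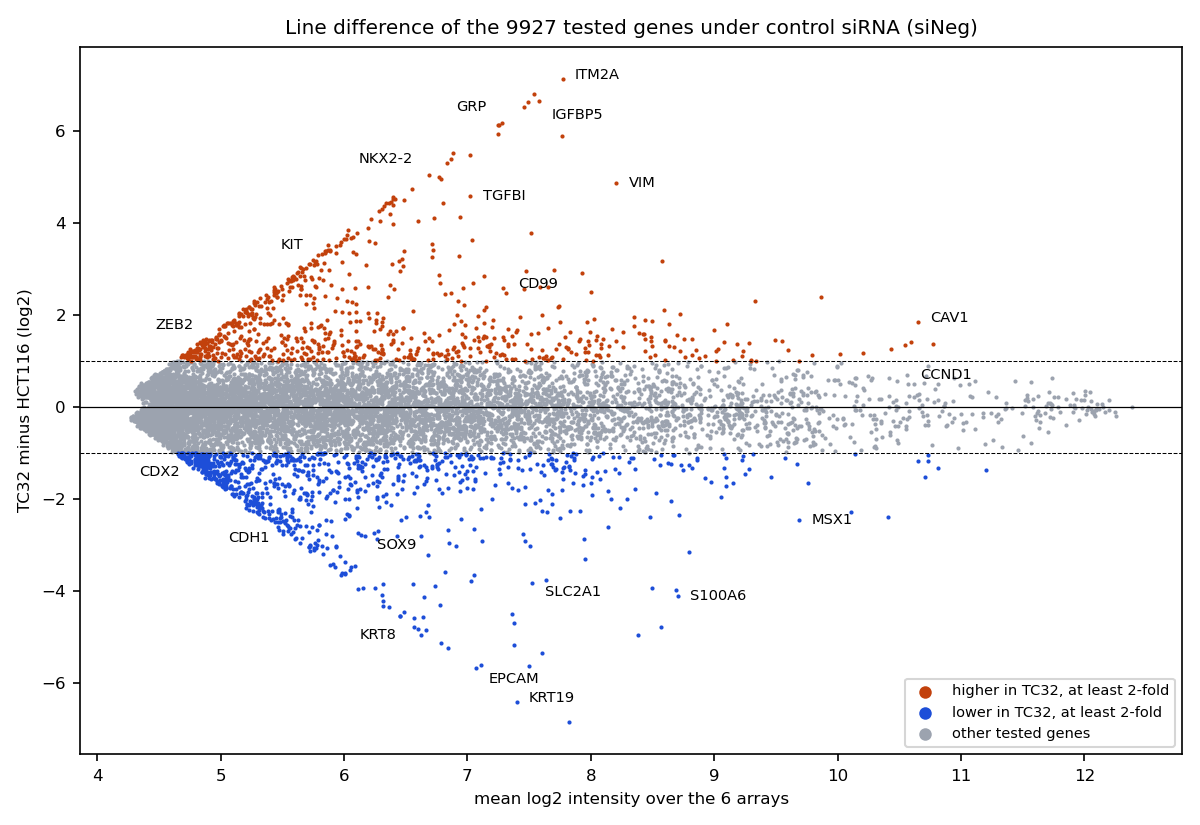
Line difference of each tested gene (TC32 minus HCT116, log2) against its mean log2 intensity over the 6 siNeg arrays. Dashed lines mark a 2-fold difference; orange genes (749) passed the test and were at least 2-fold higher in TC32, blue genes (910) at least 2-fold lower, and the diagonal edges are genes at background in 1 line.

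The promoters of some of these genes hold sequences that are known to be read by regulators of the epithelial and Ewing states, and examples are shown from the RefSeq promoter table (GRCh38.p14, 250 bases before the transcript start to 50 after it, on the gene's strand). Capitals mark the E-box CAGGTG, or CACCTG where it lies on the opposite strand, which the repressors of the ZEB and SNAI families bind in epithelial promoters such as that of CDH1. The first 3 belong to genes that were low in TC32 and high in HCT116 and hold 2 such E-boxes each: RAB25, a small GTPase of epithelial vesicle traffic (chr1:156060910-156061209, plus strand), DSG2, a desmosome cadherin (chr18:31497927-31498226, plus strand), and S100A16, a calcium-binding protein (chr1:153613088-153613387, minus strand). These were picked as examples. Promoters of genes higher in TC32 held the E-box too, with 2 matches in STEAP1 (difference 0.96) and 1 each in ITM2A (7.12) and ALDH1A1 (6.12).
RAB25 promoter: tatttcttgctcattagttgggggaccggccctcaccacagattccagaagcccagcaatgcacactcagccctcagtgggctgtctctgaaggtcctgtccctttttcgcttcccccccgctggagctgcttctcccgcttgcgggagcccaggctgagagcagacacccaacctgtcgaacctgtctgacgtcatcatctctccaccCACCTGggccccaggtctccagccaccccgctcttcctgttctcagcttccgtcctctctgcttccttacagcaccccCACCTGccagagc
DSG2 promoter: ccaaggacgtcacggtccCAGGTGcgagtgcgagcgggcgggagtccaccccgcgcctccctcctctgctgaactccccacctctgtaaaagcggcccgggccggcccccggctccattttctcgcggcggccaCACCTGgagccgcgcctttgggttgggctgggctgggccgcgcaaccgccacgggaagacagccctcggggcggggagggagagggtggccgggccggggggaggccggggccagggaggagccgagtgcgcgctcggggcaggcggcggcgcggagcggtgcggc
S100A16 promoter: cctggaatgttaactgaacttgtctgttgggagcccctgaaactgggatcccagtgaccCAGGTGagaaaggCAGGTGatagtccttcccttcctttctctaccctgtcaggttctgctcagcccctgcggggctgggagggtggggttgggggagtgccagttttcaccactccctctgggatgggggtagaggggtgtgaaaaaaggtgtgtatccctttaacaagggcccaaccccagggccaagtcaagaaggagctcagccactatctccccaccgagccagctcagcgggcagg
In the next 2, capitals mark GGAAGGAA or its reverse complement TTCCTTCC, a pair of adjacent GGAA units. Both genes were higher in TC32: CAV1, the coat protein of caveolae and a known EWS-FLI1 target (chr7:116524759-116525058, plus strand), and TNC, the matrix protein tenascin C (chr9:115118108-115118407, minus strand). TNC is listed below among the genes known to be repressed by EWS-FLI1, so its direction here was opposite to its list.
CAV1 promoter: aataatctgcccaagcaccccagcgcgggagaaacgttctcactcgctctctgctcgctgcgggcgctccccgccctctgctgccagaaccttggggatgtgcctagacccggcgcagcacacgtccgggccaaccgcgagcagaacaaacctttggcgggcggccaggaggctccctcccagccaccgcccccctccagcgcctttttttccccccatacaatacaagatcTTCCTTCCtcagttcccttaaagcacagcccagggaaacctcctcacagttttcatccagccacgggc
TNC promoter: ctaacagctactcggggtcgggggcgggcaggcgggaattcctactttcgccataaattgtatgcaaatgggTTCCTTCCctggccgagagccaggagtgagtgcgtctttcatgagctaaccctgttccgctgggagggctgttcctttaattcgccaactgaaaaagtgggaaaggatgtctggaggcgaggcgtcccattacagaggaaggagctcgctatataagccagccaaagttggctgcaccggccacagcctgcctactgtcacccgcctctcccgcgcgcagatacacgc

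A window was found for 8059 of the 9927 tested genes, with the start listed first taken where a gene had several. At least 1 CAGGTG, on either strand, lay in 15.7% of promoters of genes at least 2-fold higher in TC32, in 27.5% of those at least 2-fold lower, and in 16.7% of the other tested genes. The share over all genes of the table was 20.6%. Among genes detected on all 6 arrays the 3 shares were closer, at 18%, 21% and 16.2%. The promoters differed in base composition, with a median GC content of 63.7% for genes higher in TC32, 67.7% for genes lower and 65.3% for the others. With GC at or below the median of all tested promoters, the E-box shares were 16.2%, 26.7% and 16.3%, and above it they were 15.1%, 28.0% and 17.2%. For GGAAGGAA, the shares over all tested genes were 3.25% (higher in TC32), 2.93% (lower) and 3.37% (others), with 3.58% over the whole table. Among listed EWS-FLI1 activated genes with a window, 1 of 22 held it (4.55%). These shares describe letters in a window and were not tested.

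Genes known to be activated by EWS-FLI1 were higher in TC32. Of 33 listed, 25 were measured and all 25 passed in the upward direction (background 31.1%). At least 2-fold higher were 17 (background 7.55%), and the median difference was 1.84 on the log2 scale. All TC32 arrays and no HCT116 array detected 8 of the 25, which fixed their direction. For the 13 members detected on all 6 arrays, 7 were at least 2-fold higher (background there 6.08%) and the median was 1.73. Many of these genes were first picked out by others because they are high in Ewing sarcoma, so their direction here is not independent evidence.

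ITM2A, a membrane protein gene of differentiating mesenchyme, showed the largest difference of any named gene. Its log2 intensity was 11.30, 11.23 and 11.47 in TC32 and 4.15, 4.16 and 4.33 in HCT116, where no array detected it, which makes it at least 126-fold higher. A dimmer ITM2A probe differed by 0.83. NKX2-2, the homeodomain repressor used in the diagnosis of Ewing sarcoma, stood at 9.47, 9.52 and 9.69 in TC32 and 4.24, 4.11 and 4.20 in HCT116, at least 36.8-fold higher (difference 5.38, SE 0.10, adjusted p = 8.42e-17). PRKCB, the gene of protein kinase C beta, stood at 9.5, 9.59 and 9.36 in TC32 and 4.17, 4.28 and 4.12 in HCT116, at least 34.9-fold higher. These genes were on in TC32 and at background in HCT116.

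Other markers were present in both lines or weaker. CD99, the surface protein stained in Ewing sarcoma diagnosis, had 8.65, 8.51 and 8.48 in TC32 and 6.15, 6.03 and 6.06 in HCT116, a 5.53-fold difference (2.47, SE 0.10, adjusted p = 9.73e-13). CAV1 was bright in both lines, at 11.54, 11.68 and 11.49 in TC32 and 9.67, 9.69 and 9.84 in HCT116, and was 3.58-fold higher in TC32. BCL11B, a zinc finger factor, was at least 9.94-fold higher (HCT116 detected it on 2 of 3 arrays), and CCK, a peptide hormone gene, was at least 5.92-fold higher. The membrane metalloreductase gene STEAP1 differed by 0.96 and PPP1R1A, a phosphatase inhibitor gene, by 0.65, and both passed the test below 2-fold. NR0B1, another marker of this list, was not analysed here.

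The genes of the fusion were measured too. EWSR1 was 1.82-fold lower in TC32, at 7.81, 7.90 and 7.77 in TC32 and 8.79, 8.70 and 8.58 in HCT116 (difference -0.86, SE 0.10, adjusted p = 7.77e-07), and its other 2 probes differed by -0.89 and -0.87. FLI1 was dim everywhere, at 5.02, 4.44 and 4.87 in TC32 and 4.27, 4.45 and 4.15 in HCT116. Its difference of 0.49 passed the test (SE 0.13, adjusted p = 0.00430), but the lowest TC32 value lay below the highest HCT116 value. Which part of each transcript the probes read, and so whether they see the fusion, is not given in the sources used here.

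Other members of the ETS family went both ways. Of 18 measured ETS and FET genes, 2 were at least 2-fold higher and 7 lower, or 1 and 2 of the 10 detected on all 6 arrays. ETV5 and ETV4, which the MAP kinase pathway induces, were at least 9.33-fold and at least 2.53-fold lower (a dimmer ETV5 probe differed by -0.86). ELF3 and EHF, the ETS factors of epithelia, were at least 3.79-fold and at least 2.44-fold lower, and ELF1 was 3.39-fold lower. ETV3 was at least 2.54-fold and ELF2 2.17-fold higher in TC32. ETS1 was not called, at 6.44, 6.41 and 6.21 in TC32 and 6.37, 6.57 and 6.11 in HCT116, values that overlap.

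Genes known to be repressed by EWS-FLI1 did not lie to 1 side. Of 20 measured, 6 were at least 2-fold higher in TC32 and 8 lower, with a median difference of -0.40 (5 and 7 of the 17 detected on all 6 arrays). The lower ones were led by PHLDA1 (40.9-fold lower), CDKN1A, the p21 cell cycle inhibitor (6.39, 6.43 and 6.76 in TC32 and 10.54, 10.53 and 10.32 in HCT116, 15.3-fold lower), and the Wnt antagonist DKK1 (14.5-fold lower). The higher ones included the collagen gene COL3A1 (at least 23.5-fold), TNC (10.5-fold), smooth muscle actin ACTA2 (4.00-fold), the matrix-associated CCN2 (3.27-fold) and the AP-1 factor JUN (2.27-fold). TAGLN, another contractile gene, was not called, with 5.20, 5.31 and 5.19 in TC32 and 5.30, 5.46 and 5.64 in HCT116, but was called lower without HCT116 replicate 1 (difference -0.31, adjusted p = 0.0236), with all 12 arrays (-0.23) and under median scaling (-0.43).

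Neural transcription factors were measured on both sides, with different members in each line. Of 44 listed, 24 were measured; 9 were at least 2-fold higher in TC32 and 5 lower, or 1 and 2 of the 6 detected on all 6 arrays. POU3F2, a POU factor of neural progenitors, stood at 8.79, 8.61 and 8.61 in TC32 and 4.23, 4.12 and 4.14 in HCT116, at least 19.8-fold higher. OTX2, the forebrain homeobox gene, was at least 18.6-fold higher and SOX11 at least 6.99-fold higher, both undetected in HCT116. HCT116 instead held LHX2 (at least 5.07-fold lower in TC32), SOX8 (at least 2.88-fold lower) and, in both lines but more in HCT116, MSX1 and SOX4. MSX1 stood at 8.56, 8.42 and 8.39 in TC32 and 11.11, 10.81 and 10.85 in HCT116 (5.52-fold lower), and SOX4 at 6.65, 6.36 and 6.22 in TC32 and 8.57, 8.47 and 8.52 in HCT116 (4.32-fold lower).

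HOX genes, which mark position along the body axis, gave each line its own pattern. Of 18 measured, 9 were at least 2-fold higher in TC32 and 1 lower, or 3 and 1 of the 9 detected on all 6 arrays. The posterior HOXD genes were on in TC32 and near background in HCT116. HOXD11 stood at 7.28, 7.13 and 7.49 in TC32 and 4.33, 4.22 and 4.42 in HCT116, where 1 of 3 arrays detected it (at least 7.57-fold higher). HOXD10 was at least 6.83-fold and HOXD13 at least 3.51-fold higher, with no HCT116 array detecting either. Within the HOXB cluster the members split: HOXB13 (at least 4.13-fold) and HOXB2 (at least 3.88-fold) were higher in TC32, HOXB8 was 2.42-fold lower, HOXB7 was lower by less than 2-fold (difference -0.41), and HOXB5 was not called, at 7.46, 7.56 and 7.75 in TC32 and 7.58, 7.49 and 7.64 in HCT116. Under median scaling HOXB5 was called lower.

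Few regulators of the mesenchymal or epithelial state were measured in both lines. Of 11 mesenchymal regulators measured, 4 were at least 2-fold higher and 1 lower, or 1 and 0 of the 3 detected on all 6 arrays. MEIS1, a homeobox partner of HOX proteins, was at least 8.68-fold higher (detected on 2 of 3 HCT116 arrays). ZEB2, a repressor of E-cadherin, stood at 6.05, 6.10 and 5.60 in TC32 and 4.15, 4.14 and 4.11 in HCT116 (at least 2.94-fold higher), and TWIST2, counted by its measured difference of 1.06, was at least 1.86-fold higher. ZEB1 was not above background in either line. RUNX1 was at least 3.21-fold lower. All 5 epithelial regulators measured passed the filter through HCT116 alone, which fixed their direction. ELF3, given above, and the RNA-binding protein RBM47 (at least 3.69-fold, detected on 1 TC32 array) were lower by more than 2-fold, and the splicing factor ESRP1 (at least 1.61-fold), GRHL2 (at least 1.26-fold) and OVOL2 (at least 1.29-fold) by less.

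Several intestinal and endodermal factors were detected in HCT116 alone. Of 13 measured, 8 were at least 2-fold lower and 1 higher. Of those measured, 6 were detected on every HCT116 array and no TC32 array. Of the 5 detected on all 6 arrays 1 went each way, with a median of 0.57, higher in TC32. SOX9, a crypt progenitor factor, stood at 4.56, 4.89 and 4.86 in TC32 and 7.59, 7.70 and 7.40 in HCT116 (6.96-fold lower, SE 0.11 on the log2 scale, adjusted p = 1.75e-12). PPARG was at least 4.51-fold lower and FOXQ1 at least 2.25-fold lower. CDX2, the intestinal master regulator, was dim in HCT116 and undetected in TC32, at 4.14, 4.13 and 4.28 in TC32 and 5.73, 5.38 and 5.65 in HCT116 (at least 2.29-fold lower). MYB was 2.34-fold higher in TC32. FOXA1, an endodermal pioneer factor, was higher in TC32 by 0.91 on the log2 scale, and KLF4 was not called, at 4.78, 4.73 and 4.56 in TC32 and 4.67, 4.72 and 4.55 in HCT116.

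**Figure D2:**
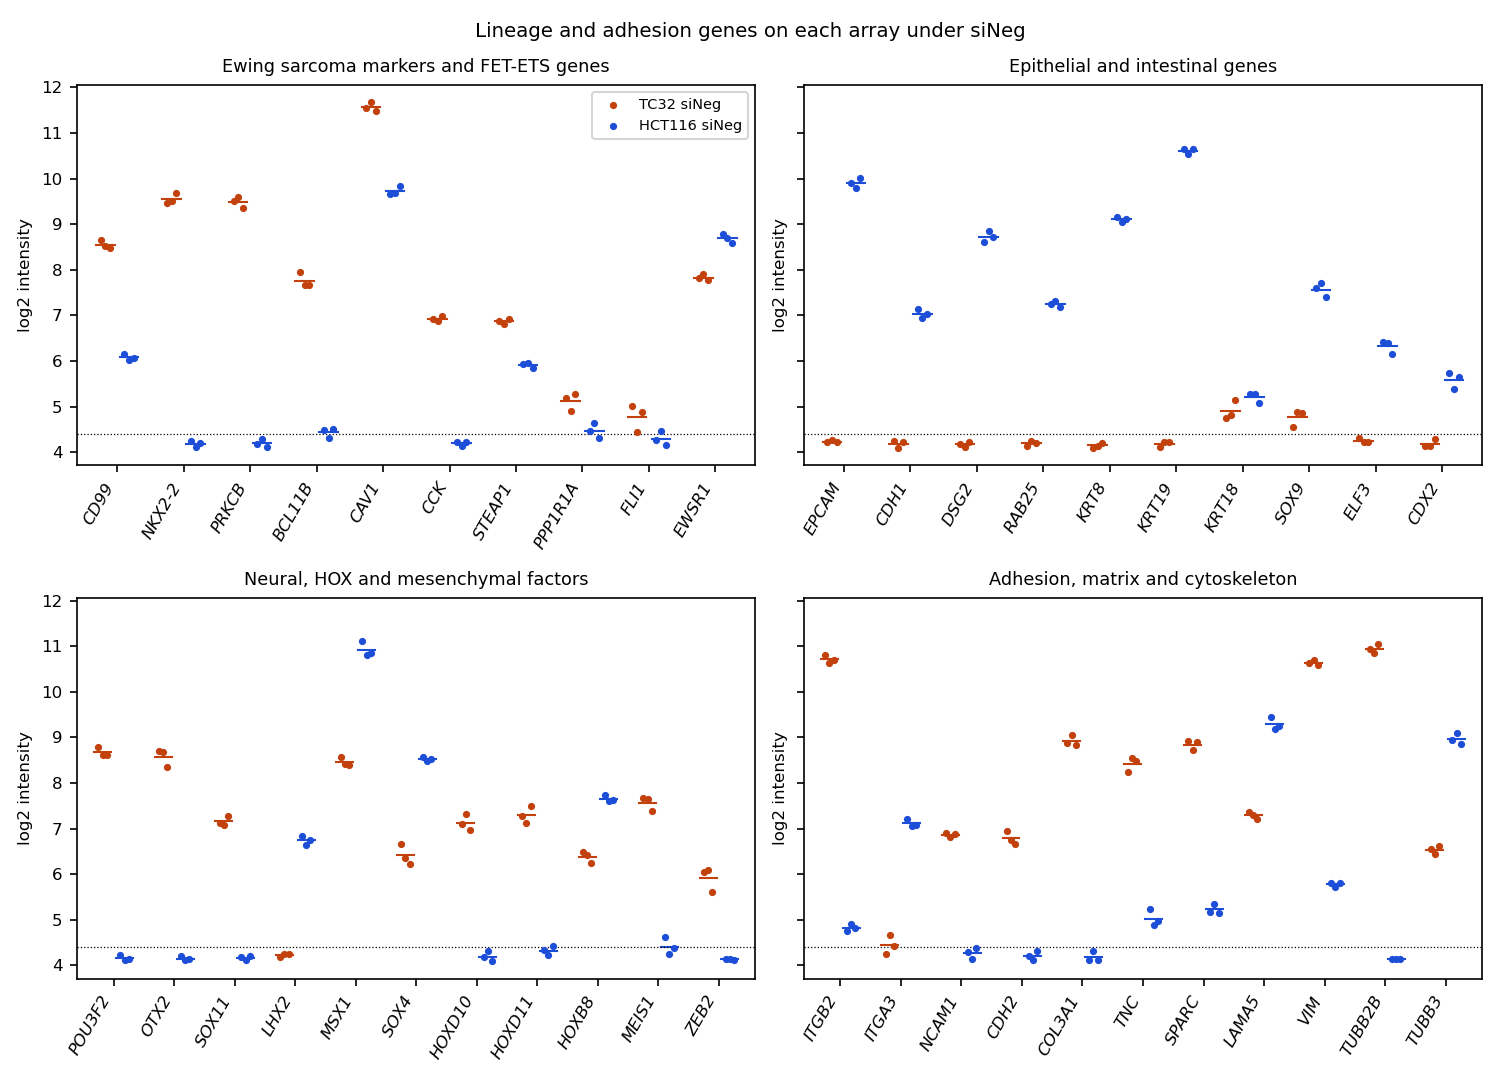
Log2 intensity of lineage and adhesion genes on each siNeg array, with TC32 in orange and HCT116 in blue; points are arrays, bars are means of 3 arrays, and the dotted line is the highest detection floor (4.40). NKX2-2, POU3F2 and TUBB2B were on in TC32 and below the floor in HCT116, EPCAM, DSG2 and KRT19 the opposite, and FLI1 and KRT18 overlapped between lines.

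Epithelial junction genes were lower in TC32 as a rule. Of 42 listed genes 31 were measured, and 18 were at least 2-fold lower in TC32 and 0 higher (background 9.17% and 7.55%), with a median of -1.38. HCT116 alone supplied most of them: 19 were detected on every HCT116 array and no TC32 array. Among the 6 detected on all 6 arrays, 2 were at least 2-fold lower and the median was -0.85. At least 1 CAGGTG lay in the promoter of 47.1% of the members with a window (8 of 17). CDH1 and EPCAM had no window. The share was 17.6% over all tested genes with a window and 27.5% over those at least 2-fold lower in TC32. Among listed EWS-FLI1 activated genes it was 9.09% (2 of 22). These shares were not tested.

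EPCAM, the epithelial adhesion protein, stood at 4.22, 4.27 and 4.21 in TC32 and 9.90, 9.79 and 10.02 in HCT116, at least 45.5-fold lower (difference -5.67, SE 0.10, adjusted p = 4.18e-17). Its 2 dimmer probes differed by -4.66 and -1.04. CDH1, the gene of E-cadherin, stood at 4.25, 4.09 and 4.22 in TC32 and 7.14, 6.94 and 7.03 in HCT116, at least 6.22-fold lower. DSG2 had 4.19, 4.12 and 4.23 in TC32 and 8.61, 8.85 and 8.72 in HCT116 (at least 20.1-fold lower). None of these 3 was detected on any TC32 array. SPINT2 and PRSS8, an inhibitor and a protease of the epithelial surface, were at least 46.0-fold and at least 7.01-fold lower, and RAB25 was at least 7.2-fold lower. CLDN1 was the 1 member that passed as higher in TC32, from a level close to the floor (4.57, 4.52 and 4.43 in TC32 and 4.17, 4.15 and 4.11 in HCT116). CLDN12 was not called, at 6.46, 6.49 and 6.52 in TC32 and 6.41, 6.53 and 6.37 in HCT116.

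Keratins followed the junctions only in part. All 7 keratins measured were lower in TC32, 2 at least 2-fold, but 5 were detected in HCT116 alone, which fixed their direction. The 2 detected on all 6 arrays differed by less than 2-fold. KRT19 stood at 4.12, 4.22 and 4.22 in TC32 and 10.65, 10.54 and 10.65 in HCT116 (at least 74.3-fold lower), and KRT8 at 4.10, 4.14 and 4.20 in TC32 and 9.15, 9.06 and 9.11 in HCT116 (at least 26.1-fold lower). KRT18, which pairs with KRT8 in simple epithelium, was dim in both lines and overlapped, at 4.75, 4.81 and 5.14 in TC32 and 5.28, 5.28 and 5.08 in HCT116. Its difference of -0.31 (SE 0.11, adjusted p = 0.0241) was lost when any of several arrays was left out: without TC32 replicate 1 the adjusted p was 0.110, without TC32 replicate 2 it was 0.0812, without HCT116 replicate 1 0.0886 and without HCT116 replicate 2 0.0840. The other KRT18 probe differed by -0.75.

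Markers of differentiated colon were largely absent from both lines. Of 32 listed, 26 were not above background in either, among them CDH17, LGALS4, CEACAM5 and VIL1. Of the other fixed epithelial and colorectal markers, EPCAM, CDH1, KRT8, KRT19 and a dim CDX2 were detected in HCT116 and not in TC32. KRT18 overlapped between the lines. CA2, a carbonic anhydrase of colonocytes, was at least 17-fold lower in TC32. CEACAM6, a surface glycoprotein of the colon, went against its list: 9.31, 9.21 and 9.11 in TC32 and 4.17, 4.15 and 4.21 in HCT116, at least 28.9-fold higher in TC32. MUC1 differed by -0.53 and CEACAM1 by 0.35.

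Some adhesion genes of neural and mesenchymal cells were on in TC32. Of 45 listed, 27 were not above background in either line and 15 were measured. Of the 15 measured, 9 were at least 2-fold higher and 0 lower (background 7.55% and 9.17%), or 2 and 0 of the 4 detected on all 6 arrays. All TC32 arrays and no HCT116 array detected 7 of the 15, which fixed their direction. NLGN4X, a synaptic neuroligin, was at least 11.2-fold higher. NCAM1 stood at 6.91, 6.81 and 6.87 in TC32 and 4.28, 4.13 and 4.38 in HCT116 (at least 5.65-fold higher). Cadherins lay in opposite lines: CDH2, N-cadherin, stood at 6.94, 6.74 and 6.67 in TC32 and 4.21, 4.12 and 4.32 in HCT116 (at least 5.37-fold higher), and CDH11 was at least 3.89-fold higher, where CDH1 was lower. THY1 was at least 3.70-fold higher. SEMA6A was lower by less than 2-fold (-0.49), and CNTNAP2 was not called. CNTNAP2 was called higher without TC32 replicate 3 (difference 0.45) and without HCT116 replicate 1 (0.37). It was also called higher with replicate number as a block (0.29) and under cyclic loess scaling (0.32).

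Integrins also differed by subunit. ITGB2, the beta subunit of leukocyte integrins, stood at 10.80, 10.62 and 10.71 in TC32 and 4.75, 4.91 and 4.82 in HCT116, 59.1-fold higher, and its second probe differed by 6.15. Of 12 other leukocyte markers, 1 was detected on all 3 arrays of either line, CD68, whose levels were 6.03, 5.96 and 6.24 in TC32 and 5.53, 5.15 and 5.20 in HCT116. CD14 and CD79A were detected on 2 TC32 arrays, CD2 on 1, and LYZ on 2 HCT116 arrays, and the highest value among these 4 was 4.61. The mean over all probes of that list was 4.35 to 4.38 on TC32 arrays and 4.26 to 4.30 on HCT116 arrays, near the floor. The laminin and collagen receptors of epithelium were lower in TC32: ITGA3 at least 6.15-fold (2 of 3 TC32 arrays detected it), ITGB4 at least 3.13-fold and ITGA2 at least 2.66-fold. ITGB1, the common partner, was not called, at 9.25, 9.22 and 9.18 in TC32 and 9.35, 9.34 and 9.48 in HCT116, a difference of -0.17. In 5 of 17 alternative processings ITGB1 was called lower, with differences from -0.16 without background correction to -0.43 under median scaling.

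Matrix genes went both ways. Of 27 measured, 13 were at least 2-fold higher in TC32 and 7 lower, or 5 and 1 of the 9 detected on all 6 arrays. COL3A1 stood at 8.87, 9.04 and 8.82 in TC32 and 4.12, 4.32 and 4.12 in HCT116 (at least 23.5-fold higher), the collagen-binding protein SPARC at 8.92, 8.72 and 8.89 in TC32 and 5.18, 5.35 and 5.14 in HCT116 (12.3-fold higher), and TNC at 8.23, 8.55 and 8.49 in TC32 and 5.22, 4.89 and 4.97 in HCT116 (10.5-fold higher). BGN (at least 9.11-fold) and COL5A2 (at least 7.52-fold) were higher as well. Lower in TC32 were LAMA5, a laminin of epithelial basement membrane (7.37, 7.30 and 7.21 in TC32 and 9.45, 9.18 and 9.26 in HCT116, 4.01-fold), COL18A1 (at least 4.52-fold), COL4A5 (at least 3.65-fold), COL7A1 (at least 2.79-fold) and the proteoglycan VCAN (at least 4.40-fold). COL1A1, the main fibrillar collagen, was dim and not called, at 4.93, 5.20 and 4.80 in TC32 and 4.96, 4.87 and 4.74 in HCT116.

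Fibroblast markers moved with this group in part. Of 12 such markers, 6 were detected on all TC32 arrays and 2 on all HCT116 arrays. The mean over their probes was 5.06 to 5.09 in TC32 and 4.35 to 4.38 in HCT116. COL3A1, PDGFRB, THY1, TWIST2 and FBLN1 were each at least 2-fold higher in TC32 by measured value, COL1A1 was not called, and DCN, LUM, PDGFRA, FAP, POSTN and COL1A2 were not detected on all 3 arrays of either line. Of 10 endothelial markers, none was detected on all TC32 arrays (PECAM1 on 1) and 1, ESAM, was detected on all HCT116 arrays (ROBO4 on 1). Structural RNA probes, which bear on RNA quality, had a median difference of 0.16 over 11, with 3 called higher in TC32 and 2 lower. The part of other cells and of RNA quality in these results was not tested.

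Filament and tubulin genes did not divide into neuronal and epithelial along the lines' names. VIM, the mesenchymal filament vimentin, stood at 10.62, 10.70 and 10.59 in TC32 and 5.80, 5.73 and 5.80 in HCT116 (29.1-fold higher, SE 0.09 on the log2 scale, adjusted p = 1.41e-16). TUBB2B, a beta-tubulin of developing neurons, stood at 10.93, 10.85 and 11.04 in TC32 and 4.14, 4.15 and 4.13 in HCT116 (at least 95.8-fold higher). TUBB3, the tubulin used to stain neurons, was the opposite: 6.56, 6.45 and 6.61 in TC32 and 8.94, 9.09 and 8.86 in HCT116, 5.38-fold lower. The growth cone gene BASP1 (at least 57.5-fold), the neuronal ubiquitin hydrolase UCHL1 (at least 17.8-fold) and DPYSL2 (4.91-fold) were higher in TC32, while STMN3 (3.28-fold), TUBB4A (2.17-fold), CKB (2.23-fold) and DPYSL3 (at least 2.26-fold, detected on 2 TC32 arrays) were lower. In all, 6 of 23 measured cytoskeleton genes were at least 2-fold higher and 6 lower, or 3 and 4 of the 14 detected on all 6 arrays. Tubulin genes are alike in sequence, so cross-reaction between their probes cannot be checked here.

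Calcium-binding S100 proteins and the hyaluronan receptor CD44 were low in TC32. Of 26 measured genes of actin linkers, annexins and S100 proteins, 12 were at least 2-fold lower and 3 higher, and of the 18 detected on all 6 arrays 7 and 2. CD44 stood at 4.24, 4.24 and 4.18 in TC32 and 9.53, 9.40 and 9.43 in HCT116 (at least 33.4-fold lower, with a second probe differing by -1.93). S100A4 stood at 6.29, 6.09 and 6.16 in TC32 and 10.98, 10.99 and 10.91 in HCT116 (27.5-fold lower), S100A6 was 17.3-fold and S100A16 at least 7.54-fold lower, and S100A11 was not called. The ERM linker RDX (3.88-fold), the plastin LCP1 (at least 3.66-fold) and ANXA1 (2.59-fold) were higher in TC32.

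**Figure D3:**
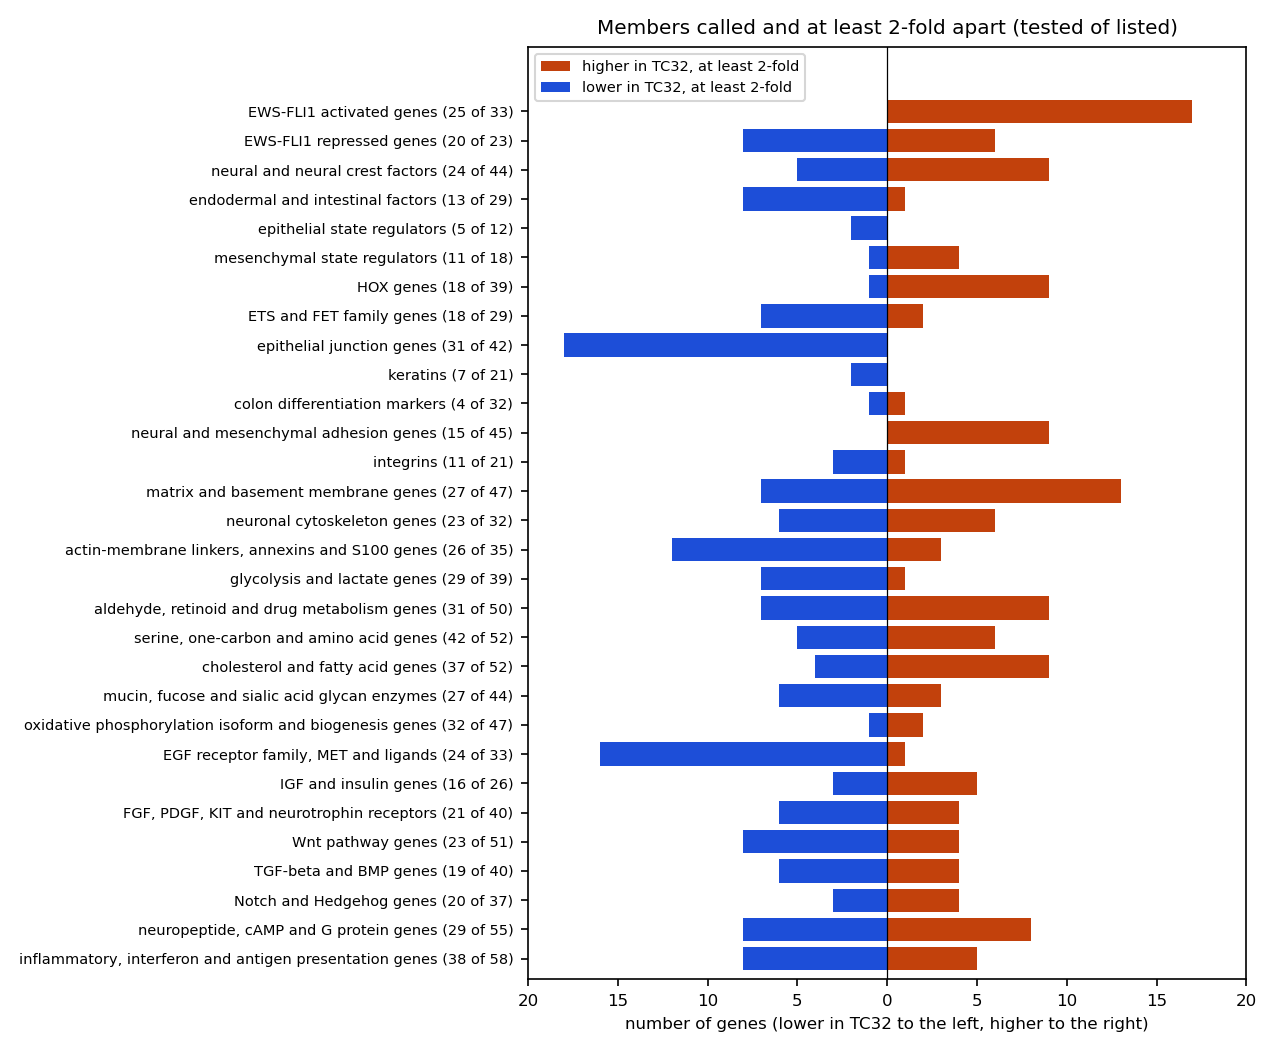
Number of genes in each list that passed the test and were at least 2-fold higher in TC32 (orange, right) or lower (blue, left), with the number measured of the number listed in brackets. Epithelial junction genes (0 higher, 18 lower) and EWS-FLI1 activated genes (17 higher, 0 lower) lay to 1 side, while neuronal cytoskeleton genes (6 and 6) and peptide and G protein genes (8 and 8) were even.

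In metabolism, glycolysis genes were lower in TC32. Of 29 measured, 18 passed as lower and 5 as higher (background 37.5% and 31.1%), 7 and 1 of them at least 2-fold; for the 27 detected on all 6 arrays the median was -0.52. SLC2A1, the basal glucose transporter, stood at 5.78, 5.10 and 5.94 in TC32 and 9.51, 9.40 and 9.42 in HCT116, 14.3-fold lower (SE 0.16, adjusted p = 2.22e-12). TXNIP, whose protein removes glucose transporters from the surface, is not in this list or its counts. It stood at 9.73, 9.53 and 9.65 in TC32 and 4.14, 4.12 and 4.13 in HCT116, at least 38.8-fold higher. The aldolase ALDOC was 3.43-fold lower and the pyruvate dehydrogenase kinase PDK3 3.09-fold lower. A pair of isozymes that set the level of a fructose bisphosphate activator of glycolysis went opposite ways: PFKFB4 had 5.47, 5.41 and 5.66 in TC32 and 8.21, 8.27 and 8.07 in HCT116 (6.36-fold lower), and PFKFB3 had 8.68, 8.51 and 8.64 in TC32 and 7.53, 7.32 and 7.58 in HCT116 (2.19-fold higher). TALDO1 and PFKL were not called. The glucose content of the media is not given in the labels.

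Most mitochondrial genes were within 2-fold or not called, as were most genes tested. Of 32 measured genes of oxidative phosphorylation and its regulators, 29 were within 2-fold or not called. At least 2-fold higher in TC32 were 2 and lower 1 (background 7.55% and 9.17%). Of the 30 detected on all 6 arrays the counts were also 2 and 1 (background there 6.08% and 6.86%). UCP2, a mitochondrial carrier, was 3.49-fold higher in TC32 and ME2 2.05-fold higher, while COX4I1 was 2.26-fold lower, at 10.09, 10.03 and 10.08 in TC32 and 11.22, 11.27 and 11.23 in HCT116. COX8A was not called, at 10.29, 10.53 and 10.63 in TC32 and 10.44, 10.51 and 10.55 in HCT116.

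The lines had different retinaldehyde dehydrogenases, the enzymes that make retinoic acid. ALDH1A1 stood at 10.31, 10.35 and 10.30 in TC32 and 4.17, 4.20 and 4.23 in HCT116 (at least 62.2-fold higher). ALDH1A3 stood at 4.25, 4.14 and 4.25 in TC32 and 9.39, 9.45 and 9.23 in HCT116 (at least 31.1-fold lower). Neither was detected on any array of the other line, and the second probe of each gave the same direction (4.73 and -4.38). The retinoic acid binding protein CRABP2, at 5.04, 4.99 and 5.05 in TC32 and 9.77, 9.65 and 9.75 in HCT116, was 25.9-fold lower, and CYP26B1, which degrades retinoic acid, was at least 4.95-fold lower. DHRS3, which returns retinaldehyde to retinol, was 6.09-fold higher.

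Detoxifying enzymes went both ways. The glutathione transferase genes GSTM1 and GSTM2 were 7.74-fold and 8.39-fold higher in TC32, but they are close copies whose probes may cross-react. The carbonyl reductase CBR3 was 4.74-fold higher, the quinone reductase NQO1 was 3.98-fold lower (7.10, 7.15 and 7.24 in TC32 and 9.18, 9.22 and 9.08 in HCT116) and MGST2 was 2.85-fold lower. Over the 31 measured genes of aldehyde, retinoid and drug metabolism, 9 were at least 2-fold higher and 7 lower, or 7 and 3 of the 23 detected on all 6 arrays. ALDH7A1 and EPHX1 were not called.

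Amino acid genes also split by enzyme. BCAT1, the cytosolic branched-chain aminotransferase, stood at 8.46, 8.44 and 8.34 in TC32 and 4.15, 4.14 and 4.17 in HCT116 (at least 16.6-fold higher). CBS, the entry to transsulfuration, stood at 8.0, 7.83 and 7.84 in TC32 and 4.20, 4.20 and 4.26 in HCT116 (at least 11.6-fold higher), and CTH, the next enzyme, was 2.80-fold higher. ASS1 was 3.98-fold higher and PSAT1, of serine synthesis, 2.37-fold higher. MTAP, which salvages methionine from polyamine synthesis, stood at 4.39, 4.28 and 4.27 in TC32 and 7.85, 7.68 and 7.87 in HCT116 (at least 10.6-fold lower), undetected in TC32. SAT1, the polyamine acetyltransferase, was 8.94-fold lower, the thymidine phosphorylase TYMP 3.36-fold lower (a dimmer probe differed by -0.26), and the leucine transporter SLC7A5 2.42-fold lower. Of 42 measured, 6 were at least 2-fold higher and 5 lower (4 and 3 of the 32 detected on all 6 arrays), and PSPH and ARG2 were not called.

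Lipid genes went both ways. Of 37 measured, 9 were at least 2-fold higher and 4 lower, or 6 and 1 of the 28 detected on all 6 arrays. FABP7, the fatty acid binding protein of neural progenitors, was at least 18.4-fold higher, at 8.58, 8.44 and 8.65 in TC32 and 4.09, 4.17 and 4.09 in HCT116. The desaturases FADS1 (5.89-fold) and FADS2 (at least 2.70-fold), the elongase ELOVL5 (2.83-fold) and the sterol enzyme HMGCS1 (2.90-fold) were higher. PLIN2, which coats lipid droplets, was at least 4.77-fold lower, and the binding proteins FABP5 (2.36-fold) and FABP6 (at least 1.85-fold, on a dim probe) were lower, as was the acyl-CoA synthetase ACSL5 (at least 2.31-fold). MVK and ACSL4 were not called.

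Glycan enzymes split as well. ST8SIA2, which builds polysialic acid on NCAM1, stood at 6.46, 6.42 and 6.44 in TC32 and 4.16, 4.14 and 4.16 in HCT116 (at least 4.24-fold higher). CHST15, a chondroitin sulfotransferase, was at least 10.6-fold lower and HS3ST1, a heparan sulfotransferase, at least 2.75-fold lower. The mucin-type transferases split, with GALNT5 at least 2.37-fold higher and GALNT18 at least 2.34-fold and GALNT12 2.23-fold lower. In all 3 of 27 measured were at least 2-fold higher and 6 lower, or 1 and 2 of the 13 detected on all 6 arrays. The median was -0.39 over all measured but 0.23 over those on all 6 arrays.

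In signalling, the list of EGF receptor family, MET, ligand and MAP kinase genes had the lowest median of the signalling lists. Of 24 measured, 21 passed as lower in TC32 and 3 as higher (background 37.5% and 31.1%). At least 2-fold lower were 16 and higher 1 (background 9.17% and 7.55%), and the median was -1.48. For the 8 detected on all 6 arrays, 6 were at least 2-fold lower and the median was -1.96. EGFR itself was dim in HCT116 (4.93, 4.91 and 4.91), undetected in TC32 and at least 1.44-fold lower there. The genes lower by more than 2-fold included several that ERK activity induces. PHLDA1 stood at 4.84, 4.86 and 5.07 in TC32 and 10.44, 10.22 and 10.17 in HCT116 (40.9-fold lower; a dimmer probe differed by -0.96). The ERK phosphatase DUSP6 stood at 5.85, 5.85 and 5.28 in TC32 and 8.5, 8.59 and 8.62 in HCT116 (7.50-fold lower). ETV5 stood at 4.23, 4.18 and 4.21 in TC32 and 7.66, 7.51 and 7.69 in HCT116 (at least 9.33-fold lower), and the feedback inhibitors SPRY4 and SPRY1 were at least 4.98-fold and 4.01-fold lower. The Eph ligand EFNB2 was at least 7.11-fold lower. LRIG1, which turns EGF receptors over, was at least 2.54-fold higher in TC32.

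Of the insulin-like growth factor genes, the largest differences were mostly those of binding proteins. IGFBP5 stood at 10.81, 10.82 and 11.09 in TC32 and 4.25, 4.28 and 4.25 in HCT116 (at least 93.4-fold higher), IGFBP2 at 9.23, 9.33 and 9.18 in TC32 and 6.68, 6.87 and 6.70 in HCT116 (5.65-fold higher), and IGFBP4 was at least 3.48-fold and its protease PAPPA at least 3.85-fold higher. IGFBP6 was the reverse, at 4.67, 4.71 and 4.85 in TC32 and 7.60, 7.49 and 7.36 in HCT116 (6.67-fold lower), and IGFBP3 was at least 2.32-fold lower. GRB10, an adaptor that damps the receptor, was at least 2.34-fold lower. The RNA-binding protein gene IGF2BP2 was not called, with 8.81, 8.60 and 8.41 in TC32 and 8.65, 8.41 and 8.76 in HCT116.

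A receptor and its ligand lay in opposite lines. KIT, the stem cell factor receptor, stood at 7.64, 7.51 and 7.62 in TC32 and 4.23, 4.15 and 4.17 in HCT116 (at least 9.40-fold higher), and KITLG, its ligand, at 4.12, 4.15 and 4.24 in TC32 and 8.99, 8.85 and 9.07 in HCT116 (at least 23.8-fold lower). PDGFRB was at least 5.76-fold and GFRA2, a GDNF family receptor, at least 4.42-fold higher in TC32. HCT116 held more ligands: BDNF (at least 10.5-fold lower in TC32, with 2 dimmer probes differing by -0.94 and -0.45), FGF9 (at least 5.57-fold) and FGF19 (at least 4.80-fold), together with the receptor FGFR3 (5.39-fold, with a dimmer probe differing by -0.40). FGF13, an FGF-like protein that stays in the cell, was at least 4.12-fold higher in TC32. Over the list, 4 of 21 measured were at least 2-fold higher and 6 lower, or 0 and 2 of the 7 detected on all 6 arrays.

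**Figure D4:**
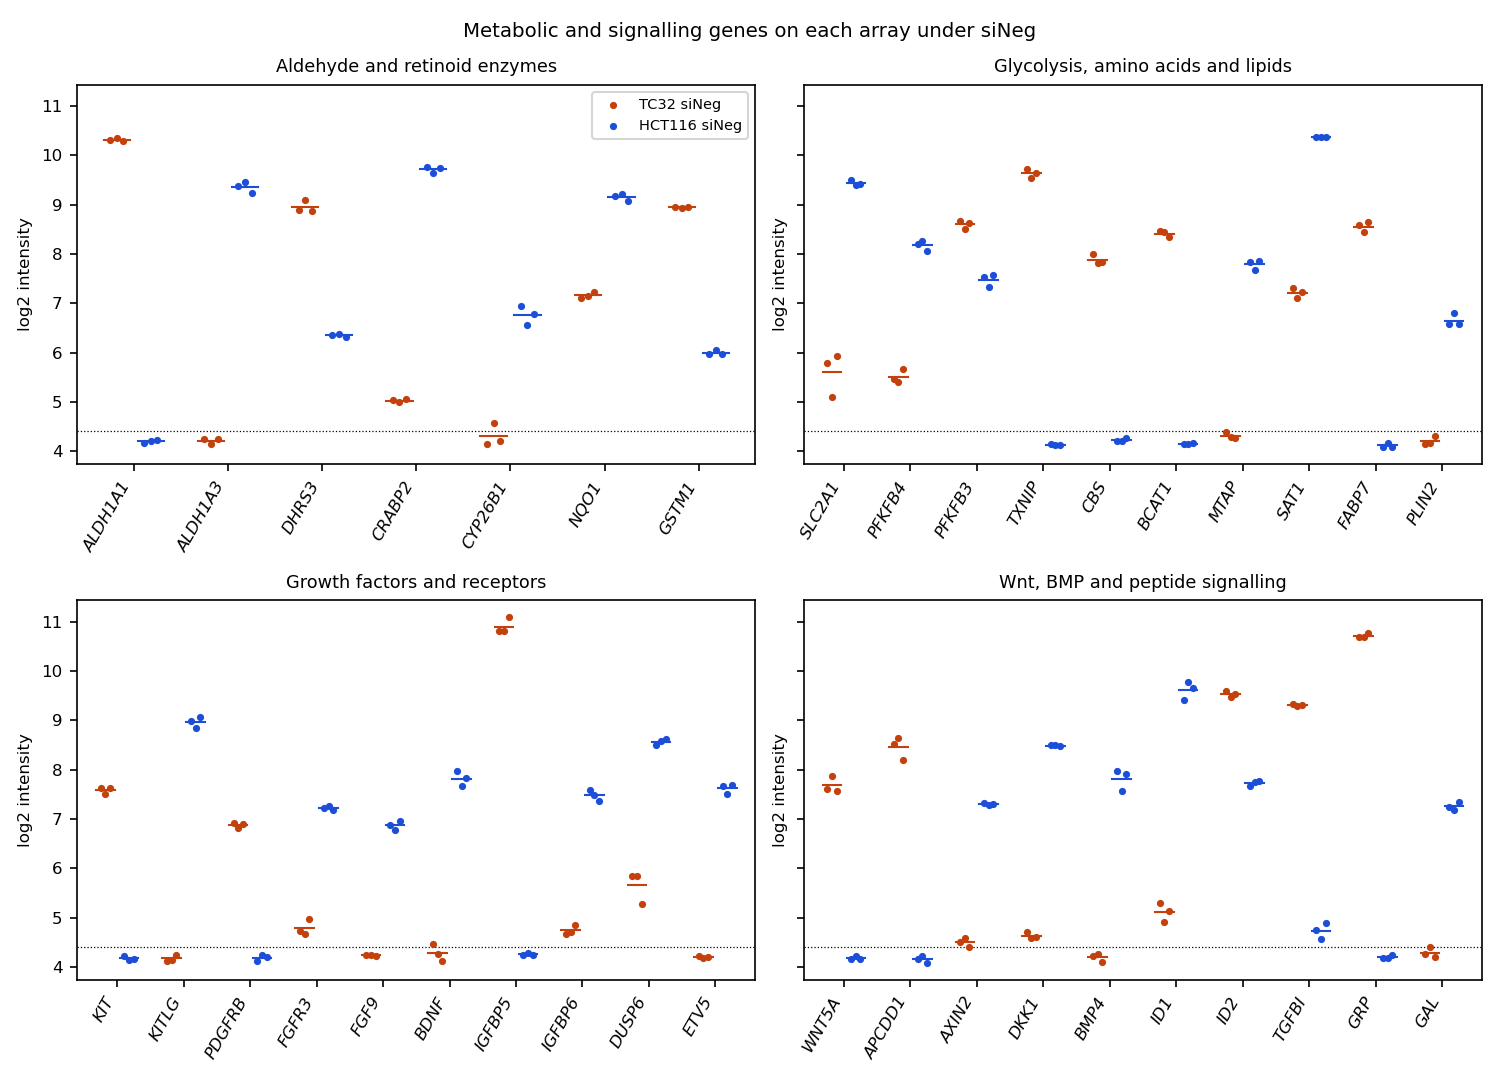
Log2 intensity of metabolic and signalling genes on each siNeg array, with TC32 in orange and HCT116 in blue; points are arrays, bars are means of 3 arrays, and the dotted line is the highest detection floor (4.40). ALDH1A1 with ALDH1A3, and KIT with KITLG, lay in opposite lines, each undetected in the line where it was low.

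Wnt pathway genes went both ways, with AXIN2, NKD2, RNF43 and DKK1 lower in TC32 and WNT5A and APCDD1 higher. The median of the list was -0.40 over the 23 measured and -0.06 over the 11 detected on all 6 arrays. AXIN2, the standard target gene, stood at 4.51, 4.58 and 4.41 in TC32 and 7.33, 7.28 and 7.30 in HCT116 (7.0-fold lower), and the feedback genes NKD2 (2.42-fold) and RNF43 (at least 1.96-fold) were lower. DKK1 stood at 4.71, 4.58 and 4.60 in TC32 and 8.49, 8.49 and 8.48 in HCT116 (14.5-fold lower). WNT5A, a non-canonical ligand, stood at 7.61, 7.88 and 7.56 in TC32 and 4.16, 4.22 and 4.16 in HCT116 (at least 10.0-fold higher), and APCDD1, a membrane inhibitor of Wnt, was at least 17.1-fold higher. The receptors FZD2 (2.37-fold) and FZD4 (2.01-fold) were higher and FZD7 was not called. In all, 4 of 23 measured were at least 2-fold higher and 8 lower, or 2 and 4 of the 11 detected on all 6 arrays.

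Genes of the TGF-beta family lay on both sides. BMP4, a ligand, stood at 4.23, 4.26 and 4.10 in TC32 and 7.97, 7.57 and 7.90 in HCT116 (at least 10.7-fold lower). The ID genes, direct BMP targets, split: ID1 stood at 5.29, 4.92 and 5.12 in TC32 and 9.41, 9.79 and 9.66 in HCT116 (22.8-fold lower, with a second probe differing by -1.26), ID3 was 3.53-fold lower, and ID2, also an EWS-FLI1 target, stood at 9.59, 9.47 and 9.53 in TC32 and 7.67, 7.75 and 7.77 in HCT116 (3.48-fold higher). GDF15 was at least 22.7-fold lower (detected on 1 TC32 array). TGFBI, a TGF-beta induced matrix protein, stood at 9.33, 9.29 and 9.31 in TC32 and 4.75, 4.57 and 4.88 in HCT116 (23.8-fold higher). SMAD4 and BMPR2 were not called, but both were called lower under median scaling (-0.32 and -0.33). Of 19 measured, 4 were at least 2-fold higher and 6 lower, or 2 and 4 of the 12 detected on all 6 arrays.

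Notch and Hedgehog genes went both ways. Of 20 measured, 8 passed as higher and 11 as lower (background 31.1% and 37.5%). At least 2-fold higher were 4 and lower 3 (background 7.55% and 9.17%), or 0 and 1 of the 8 detected on all 6 arrays. The classical ligands JAG2 (3.63-fold lower in TC32) and JAG1 (difference -0.86) and the receptor-modifying enzyme LFNG (at least 3.54-fold lower) were lower in TC32. DLL3, a ligand-like inhibitor, was at least 3.88-fold and DNER at least 2.33-fold higher. The target genes split, HEY1 at least 4.30-fold higher (detected on 2 HCT116 arrays) and HEYL at least 2.47-fold lower (detected on 2 TC32 arrays). GAS1, a Hedgehog co-receptor, was at least 3.42-fold higher, and NOTCH3 was not called, at 6.08, 6.01 and 6.0 in TC32 and 5.97, 5.83 and 5.86 in HCT116.

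Peptide hormone genes also fell into separate lines. GRP, gastrin-releasing peptide, stood at 10.69, 10.70 and 10.78 in TC32 and 4.17, 4.18 and 4.24 in HCT116 (at least 82.2-fold higher), and CCK at 6.91, 6.88 and 6.98 in TC32 and 4.23, 4.13 and 4.21 in HCT116. GAL, galanin, stood at 4.25, 4.40 and 4.20 in TC32 and 7.24, 7.19 and 7.34 in HCT116 (at least 7.24-fold lower), VGF was at least 3.39-fold lower, and PAM, the enzyme that amidates such peptides, was 2.91-fold lower, with signal in both lines. A pair of adhesion G protein receptors lay in opposite lines: ADGRG2 was at least 14.9-fold higher and ADGRG1 at least 7.85-fold lower. RGS4, which switches G proteins off, was at least 6.68-fold higher. Of 29 measured, 8 were at least 2-fold higher and 8 lower, or 3 and 4 of the 13 detected on all 6 arrays.

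Genes of inflammation, interferon response and antigen presentation, taken as 1 list, were more often lower than higher in TC32. Of 38 measured, 24 passed as lower and 10 as higher (background 37.5% and 31.1%). At least 2-fold higher were 5 and lower 8, or 1 and 7 of the 26 detected on all 6 arrays. The death receptor TNFRSF21 was 7.77-fold lower, the chemokine CXCL16 4.38-fold lower, TNFRSF12A 3.81-fold lower and the NF-kB subunit NFKB1 3.38-fold lower. IFITM1, an interferon-induced antiviral protein, stood at 7.33, 7.41 and 7.36 in TC32 and 4.42, 4.33 and 4.45 in HCT116 (at least 7.75-fold higher). The immunoproteasome subunit PSMB8 (at least 3.72-fold), CASP1 (at least 2.27-fold), BST2 (at least 2.58-fold) and B2M, the light chain of MHC class I (10.58, 10.61 and 10.58 in TC32 and 9.38, 9.52 and 9.42 in HCT116, 2.22-fold), were higher. HLA-B was not called, at 7.22, 7.2 and 6.84 in TC32 and 7.23, 7.02 and 7.06 in HCT116.

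Inhibitors of the cell cycle were more often lower than higher in TC32. CDKN1A, given above, was lower, while CDKN1B, the p27 inhibitor, and the pocket protein RBL2 were higher by less than 2-fold (0.71 and 0.98). CDKN1C (-0.44), CDKN2B (-0.88), CDKN2D (-0.73) and the pocket protein RB1 (-0.74) were lower by less than 2-fold. CDKN2A, the gene of p16, was dim in HCT116 and detected on 1 of 3 TC32 arrays, at 4.47, 4.15 and 4.15 in TC32 and 5.5, 5.55 and 5.61 in HCT116 (at least 2.19-fold lower). CDK6 stood at 4.30, 4.35 and 4.44 in TC32 and 7.84, 7.82 and 7.81 in HCT116 (at least 10.6-fold lower), while CDK4 was not called, at 8.83, 8.45 and 8.44 in TC32 and 8.67, 8.60 and 8.49 in HCT116. CCNE1 was 3.91-fold lower. CCND1, an EWS-FLI1 target, was bright in both lines and higher in TC32 by 0.70 (SE 0.09), at 10.99, 10.83 and 10.91 in TC32 and 10.28, 10.16 and 10.21 in HCT116. Of 17 measured, 5 passed as higher and 10 as lower (background 31.1% and 37.5%). None were at least 2-fold higher and 4 lower (background 7.55% and 9.17%), or 0 and 2 of the 11 detected on all 6 arrays. Of the mismatch repair genes measured, MSH6 was 1.88-fold and EXO1 1.51-fold higher. For MSH3 the probes disagreed, with the brighter not called (-0.11) and the dimmer differing by 1.42. The mean of both was called higher in TC32 (0.65).

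PRKDC, the target of the study's other siRNA, was itself lower in TC32 under siNeg, at 6.62, 6.62 and 6.91 in TC32 and 7.29, 7.44 and 7.07 in HCT116 (1.46-fold lower, difference -0.55, SE 0.12, adjusted p = 5.64e-04). Its other 2 probes differed by 0.12 and 0.17, and with the mean of all 3 probes the difference of -0.08 was not called (adjusted p = 0.428).

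The largest differences also included genes of none of these programs. Higher in TC32 were PRAC1, a small nuclear protein gene of prostate and distal colon (10.82, 10.72 and 10.88 in TC32 and 4.15, 4.12 and 4.25 in HCT116, at least 87.4-fold), NELL2, a secreted neural protein (at least 61.9-fold), the carboxylesterase CES1 (at least 64.2-fold) and OLFML3, a secreted olfactomedin (at least 41.9-fold). Lower were MT1E, a metallothionein (4.23, 4.51 and 4.45 in TC32 and 11.38, 11.24 and 11.12 in HCT116, at least 111-fold), CMTM7 (49.7-fold), EEF1A2, a tissue-restricted elongation factor (36.2-fold), the stress gene IER3 (30.9-fold), and 2 genes of the germ line, GTSF1 (at least 25.9-fold) and MAGEB2 (at least 24.6-fold). A second MT1E probe showed a difference of -0.02, and metallothionein genes are close copies, so this value is uncertain. The dimmer MAGEB2 probe differed by -1.37.

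The same probes were then compared on the 6 siPRKDC arrays, which share no sample with those above but hold the same lines. Under siPRKDC, 65.8% of genes were called, with 6.97% at least 2-fold higher in TC32 and 10.1% lower. Of the 1659 genes at least 2-fold apart under siNeg, 1575 (94.9%) were called in the same direction and 14 in the opposite one. Over all genes the 2 sets of differences correlated at 0.877 (Pearson's r, across genes). NKX2-2 differed by 5.64 under siPRKDC and 5.38 under siNeg, EPCAM by -5.92 and -5.67, KRT19 by -6.58 and -6.43, VIM by 4.22 and 4.86, and GRP by 6.62 and 6.52. These 5 kept their direction and most of their size. The change in the line difference itself was called for 32.8% of genes and was at least 2-fold for 3.86%. Structural RNA genes were among those that moved, upward for 9 of 11 measured, and their part in the other changes was not tested. Retinoid and matrix genes moved too: ALDH1A1 differed by 3.43 under siPRKDC and 6.12 under siNeg, and COL3A1 by 2.21 and 4.73.

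**Figure D5:**
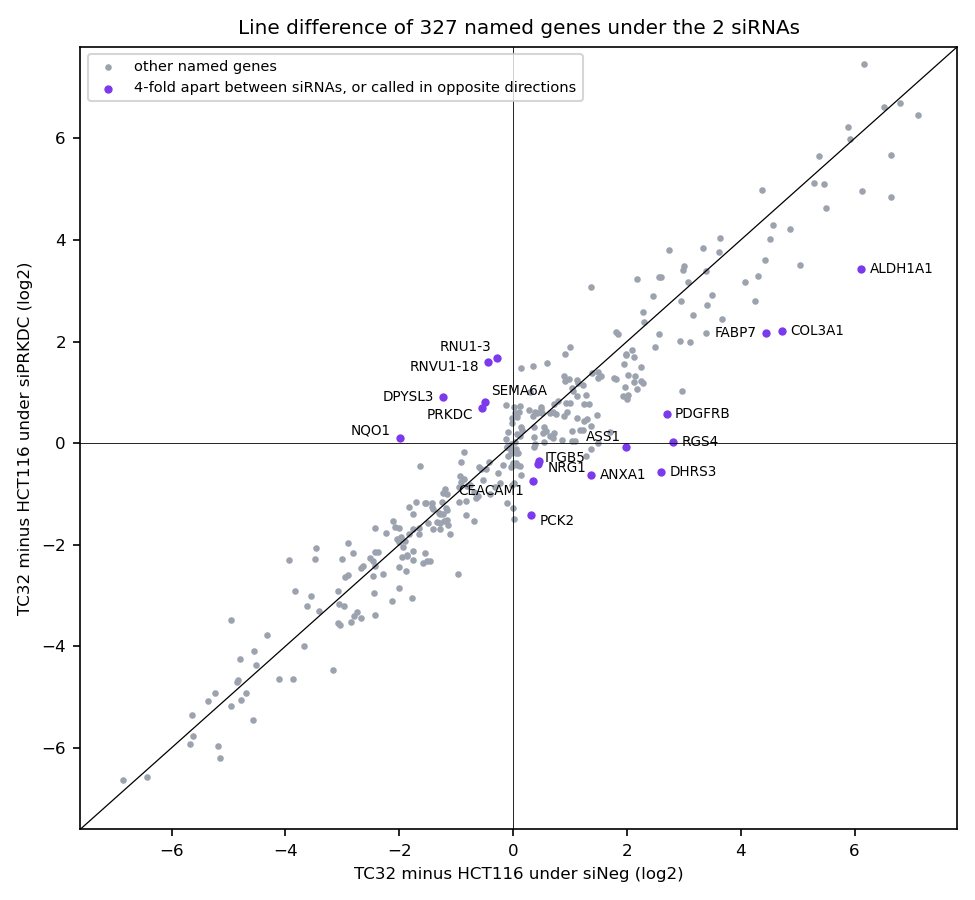
Line difference (TC32 minus HCT116, log2) of the 327 named genes under siPRKDC (vertical) against that under siNeg (horizontal), with the line of equality. Purple genes are those whose difference changed at least 4-fold between the siRNAs or was called in opposite directions; NKX2-2 and EPCAM lie near the line, and ALDH1A1 and COL3A1 below it.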

How the data were processed

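The 12 RNA samples were measured on Illumina HumanHT-12 v4 arrays, and the 6 siNeg arrays carried the comparison. The deposited tables hold, per the file headers, a raw mean intensity per probe on a linear scale and a detection p-value, which asks whether a probe exceeds the negative controls. The authors' deposited log2 values were normalized separately in each line and served only as an alternative. Per the submitters' processing notes, GenomeStudio, lumi and R 3.0.2 were used; a genome build is not given in the sources used here.

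Here the intensity values were corrected with neqc (normexp with background taken from detection p-values, offset 16) and quantile normalized over the 6 arrays in limma 3.58.1 (R 4.3.3). Probes with a detection p below 0.05 on all 3 arrays of either line were kept, probes paired with 1 gene symbol were used (12719 of 15590 kept), and the brightest kept probe stood for a gene (2323 of 9927 genes had several). Lines were compared with lmFit and eBayes, two-sided, with Benjamini-Hochberg adjustment over all genes. The script was tested on simulated data. An exact permutation test of 3 against 3 cannot go below 0.1. A bound ("at least N-fold") sets the bright line's mean against the higher of each array's detection floor and the dim probe's own value. Depth does not apply to arrays; precision is limited by their number. The siPRKDC arrays were processed in the same way.

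Gene lists and rules were chosen with earlier results of these data known. Named were fixed identity markers, the largest differences each way that did not overlap, and in each list up to 5 called members each way with up to 2 that were not called. Alternatives changed the background correction, scaling, offset, filter, probe choice, variance model, replicate block and arrays. Same-numbered replicates were checked and did not pair. Promoters came from a RefSeq table (GRCh38.p14).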

Additional observations from a re-analysis of the deposited data

Results flagged for a closer look

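The line difference (TC32 minus HCT116, log2) was set against itself under the 2 siRNAs, as an interaction term in a limma fit of all 12 arrays with Benjamini-Hochberg adjustment. Of the 327 named genes measured, the change passed an adjusted p of 0.05 for 174 (32.8% of all genes tested passed) and was at least 2-fold for 54 of them, against 3.86% of all genes tested. The named genes were chosen in part for large differences under siNeg, so these counts are a description only. Described here are the 18 whose difference changed at least 4-fold or was called in opposite directions under the siRNAs.

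Genes with a smaller or turned line difference under siPRKDC came from several programs. DHRS3 changed by -3.17, with a line difference of -0.56 under siPRKDC and 2.61 under siNeg. RGS4 changed by -2.79 (0.01 under siPRKDC and 2.82 under siNeg), ALDH1A1 by -2.65 (3.43 and 6.12) and COL3A1 by -2.49 (2.21 and 4.73). FABP7 changed by -2.24 (2.17 under siPRKDC and 4.44 under siNeg), PDGFRB by -2.11 (0.57 and 2.70), ASS1 by -2.06 (-0.07 and 1.99) and ANXA1 by -2.01 (-0.64 and 1.37). PCK2 changed by -1.75 (-1.42 under siPRKDC and 0.32 under siNeg), CEACAM1 by -1.09 (-0.74 and 0.35), ITGB5 by -0.85 (-0.41 and 0.44) and NRG1 by -0.80 (-0.35 and 0.46). For these last 4, TC32 was called lower under siPRKDC and higher under siNeg, although the siNeg call of PCK2 was lost without TC32 replicate 1 or 2 or HCT116 replicate 2 or 3 (differences 0.32, 0.19, 0.29 and 0.28). It was also lost under median scaling (0.10), with no filter on dim probes (0.32) and with the authors' log2 values (0.16). The siNeg call of ITGB5 was lost under median scaling (0.16) and that of CEACAM1 with the authors' log2 values (0.11).

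The difference moved the other way for DPYSL3, by 2.14 (0.92 under siPRKDC and -1.23 under siNeg), NQO1, by 2.10 (0.10 and -1.99), and SEMA6A, by 1.29 (0.81 and -0.49). PRKDC itself, the target of the siRNA, moved by 1.25 (0.70 under siPRKDC and -0.55 under siNeg). Its mean log2 intensity under siPRKDC was 5.29 in TC32 and 4.59 in HCT116. These PRKDC values are those of its brightest probe, and the siNeg call was lost with the mean of its probes (-0.08). Structural RNAs moved with these genes. Of 11 measured, the line difference shifted toward TC32 for 9 at an adjusted p of 0.05. The median change over all 11 was 1.40, against 0.01 over all genes. RNA28SN5, of the large ribosomal subunit, changed by 2.38, RNVU1-7 by 1.98, RNA5S9 by 1.71 and RNA18SN5 by 1.33. Of the U1 small nuclear RNAs, RNVU1-18 changed by 2.04 (1.60 and -0.44) and RNU1-3 by 1.96 (1.67 and -0.29). The siNeg call of RNU1-3 was lost without replicate 1 of TC32 (-0.24) or of HCT116 (-0.20). The part of these structural RNAs in the other changes was not tested.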

How the results depend on the processing

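Of 327 named genes measured, 296 had 1 call and direction in all of the 17 alternatives that measured them, and 31 changed in at least 1. The direction turned for BAMBI (-0.28) and HOXB5 (-0.27) under median scaling and for MSH3 (0.65) with the mean of its probes; none of these passed in the main fit. Median scaling also gave calls to 10 genes not called in the main fit, all lower in TC32, and lost the calls of 10 others. Among those gained were ACSL4 (-0.25), CDK4 (-0.29), HLA-B (-0.32), PFKL (-0.31) and S100A11 (-0.37). The size of fold changes depended on the background correction. Genes at least 2-fold higher and lower under siNeg (749 and 910) numbered 312 and 299 without it, 397 and 410 with an offset of 50, and 310 and 292 with the authors' log2 values. Under siPRKDC (692 and 1005) they numbered 226 and 367, 321 and 488, and 233 and 368, in settings added after seeing the data. The list counts at least 2-fold moved with them: of 72 such counts, 39 changed by over 1.5 times without background correction, 40 with the authors' values, 27 with the offset of 50 and 13 under median scaling. Leaving out 1 array of siNeg gave 2860 to 3147 higher and 3466 to 3633 lower, with 742 to 784 and 885 to 942 at least 2-fold. Leaving out 1 of siPRKDC gave 3009 to 3110 and 3128 to 3198, with 683 to 710 and 985 to 1014. Same-numbered replicates did not deviate together, with correlations of 0.0238, -0.0484 and -0.0174 between the lines. With replicate number as a block, siNeg gave 3107 higher and 3728 lower (749 and 910 at least 2-fold) and siPRKDC 3263 and 3313 (692 and 1005). Besides KRT18, calls of EPHB4, HOXB4, SMO, PCK2 and GABPA were among those lost in some settings, and the cause was not tested. The 3 arrays of each line limit the precision, genes near the floor have only bounds, and quantile normalization over lines that differ this much was not tested against a spike-in.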

Other observations

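Genes detected in 1 line sometimes followed each other in the order of tested genes. The tested genes were put in chromosomal order by the RefSeq table, with untested genes left out and no limit on distance. Of 9922 genes placed, 614 were called and detected on every TC32 array and at most 1 HCT116 array. With the lines exchanged, 952 met the same rule. Such genes formed 38 runs of at least 3 neighbours, 13 in TC32 and 25 in HCT116. These runs were picked out after their values were seen, and no test was made of them. On chromosome 2, HOXD13, HOXD11, HOXD10, HOXD8 and HOXD4 formed 1 run in TC32, with differences of 1.98, 2.98, 2.94, 0.89 and 1.23 (log2). On chromosome 17, PRAC2 (0.71), PRAC1 (6.63), HOXB13 (2.18) and TTLL6 (2.28) formed another, and on chromosome 16 CES1P1 (3.88), CES1 (6.17) and CES5A (1.2) formed one more. CES1P1 is a pseudogene of CES1, so its probe may read CES1.

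In HCT116, 3 neighbours on chromosome 9 were detected that TC32 lacked on most arrays: MTAP (-3.49), CDKN2A (-1.30, with 1 TC32 array detecting it) and CDKN2B (-0.88). The tested genes on either side, KLHL9 (0.08) and TUSC1 (0.90), were detected on all TC32 arrays. No copy number was measured here. The embryonic globin gene HBE1 (-4.47) was detected in HCT116 and lay in a run on chromosome 11 with HBG1 (-1.70), HBG2 (-1.72), OR51B4 (-2.26) and OR51B5 (-0.28). On the siPRKDC arrays HBE1 differed by -4.45. The cancer-testis genes MAGEA3 (-0.98), MAGEA2 (-0.78), CSAG3 (-0.77) and MAGEA6 (-1.48) were a run on the X chromosome. HBG1 and HBG2, and the MAGEA genes, are near-identical copies whose probes may not tell them apart.

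Whole chromosomes had different medians. Over genes detected on all 6 arrays, the median difference was 0.39 for the 253 genes of the X chromosome, 0.19 for the 766 of chromosome 1 and 0.15 for the 240 of chromosome 15. It was -0.28 for the 115 of chromosome 13 and -0.24 for the 237 of chromosome 4. In the same order, 60.9%, 43.9%, 42.1%, 18.3% and 20.3% of these genes were called higher, against 31.1% of all genes tested. Under siPRKDC these medians were 0.42, 0.21, 0.11, -0.21 and -0.17, on arrays that share only the lines.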
